A study of Mus musculus with 16 samples.

Results

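The 9 genes described here encode amino acid transporters of the plasma membrane and were taken by name from the table of normalized counts: Slc7a1, Slc7a3, Slc7a5, Slc7a11, Slc3a2, Slc38a2, Slc6a9, Slc1a4 and Slc1a5. All 9 were among the 14552 genes of the table, and all 9 were among the 13355 genes whose mean over the libraries was at least 10 and which were tested. The mRNA came from E14 mouse embryonic stem cells, an established line, of the genotype Ddx10-AID, Tir1. In these cells DDX10, a DEAD-box RNA helicase, carries a degron, and Tir1 is a plant protein that recruits the ubiquitin machinery to the degron when auxin is present. All groups shared this genotype, and all were grown on gelatin in medium with serum, nonessential amino acids, GlutaMAX (a stable source of glutamine), 2-mercaptoethanol, LIF, the GSK3 inhibitor CHIR99021 and the MEK inhibitor PD0325901. The 8 groups were untreated cells, cells kept with auxin (IAA, 500 µM) for 2, 4, 6 or 12 h or for 1 or 2 days, and cells given auxin for 2 days and then grown for 2 days without it, called withdrawal here. Each group had 2 libraries, 16 in all. How many clones the line represents is not given in the sources used here, and auxin-treated cells without the degron were not analysed here, so what auxin itself does and what loss of DDX10 does cannot be told apart.

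Amino acid transporters set which amino acids a cell can take up for protein synthesis, nucleotide synthesis and redox balance. Slc7a1 and Slc7a3 encode cationic carriers for arginine, lysine and ornithine. Slc3a2 encodes CD98, a heavy chain that brings light chains to the cell surface. With the light chain Slc7a5 (LAT1) it exchanges glutamine for leucine and other large neutral amino acids, and with the light chain Slc7a11 (xCT) it exchanges glutamate for cystine. Slc1a5 (ASCT2) and Slc1a4 (ASCT1) are sodium-dependent exchangers of small neutral amino acids, Slc38a2 (SNAT2) imports neutral amino acids such as glutamine and alanine together with sodium, and Slc6a9 (GlyT1) imports glycine. Several of these genes are textbook targets of ATF4, a stress-responsive transcription factor that pairs with C/EBP proteins and binds the C/EBP-ATF response element. Slc7a5 and Slc1a5 are also known as targets of Myc, and Slc7a11 of the antioxidant factor NRF2 (gene Nfe2l2).

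Promoter sequences are shown for the members whose mRNA moved in different ways below, so that the letters at their start sites can be compared. The windows are RefSeq sequences on GRCm38.p6 from 100 bases before to 20 bases of the transcript, all from the minus strand and printed 5′ to 3′, and capitals mark every match to the 4 motifs searched. They lie at chr3:50443594-50443713 for Slc7a11, chr5:148399885-148400004 for Slc7a1, chr11:20332694-20332813 for Slc1a4, chr15:96699709-96699828 for Slc38a2 and chr19:8713878-8713997 for Slc3a2.
Slc7a11: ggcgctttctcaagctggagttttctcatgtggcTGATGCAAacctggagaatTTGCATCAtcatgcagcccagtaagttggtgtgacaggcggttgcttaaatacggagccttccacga
Slc1a4: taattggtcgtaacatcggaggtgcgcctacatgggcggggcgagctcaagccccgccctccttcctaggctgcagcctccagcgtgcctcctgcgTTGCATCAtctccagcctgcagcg
Slc7a1: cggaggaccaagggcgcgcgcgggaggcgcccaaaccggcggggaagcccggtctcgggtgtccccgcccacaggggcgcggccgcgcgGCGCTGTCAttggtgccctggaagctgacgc
Slc38a2: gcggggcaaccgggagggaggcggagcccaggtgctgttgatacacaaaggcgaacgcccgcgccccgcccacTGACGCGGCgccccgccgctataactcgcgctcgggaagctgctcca
Slc3a2: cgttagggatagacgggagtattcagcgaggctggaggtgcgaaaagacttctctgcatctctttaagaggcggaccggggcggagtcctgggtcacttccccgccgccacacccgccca
The capitals in Slc7a11 and Slc1a4 are the core of the C/EBP-ATF element, searched as TGATGNAA. Slc7a11 held it at -66 as TGATGCAA and at -47 on the other strand as TTGCATCA, and Slc1a4 held it at -4 on the other strand as TTGCATCA, counting bases upstream of the start site. The capitals in Slc7a1 (at -11, other strand) and Slc38a2 (at -27) are the core of the antioxidant response element, searched as TGACNNNGC. In windows of 300 bases (250 before the start and 50 after), the C/EBP-ATF core was found in 3.97% of 32851 RefSeq promoters and the antioxidant core in 12.4%. RefSeq windows were matched for 6 of the 9 members, 9 windows in all. Of the 3 windows of Slc6a9, 2 held the antioxidant core, at -46 and -45. The CRE TGACGTCA (1.79% of promoters) and the E-box CACGTG (7.15%) were in none of the 9 windows, and the window of Slc3a2, whose start site lies inside the annotated gene, held none of the 4 motifs. All searches used both strands, the motifs do not overlap each other in these windows, and a match describes letters only.

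Depth and replicates were as follows. The spacing of low values gave an estimate of 13.6 to 17.5 M reads per library, and 1 read was worth 0.89 to 1.24 normalized counts. In no group did the replicates match within counting noise (chi-square per degree of freedom 4.48 to 24.5, the highest in untreated cells and at 1 day), so none were merged. The labels do not state separate cultures for the 2 libraries of a group, so every p-value rests on a spread between samples that may be technical alone. The libraries of 2 to 12 h stood apart from those of the other 4 groups at 7.6% of tested genes, at which the 8 libraries of one set all lay above or all below the 8 of the other. This was true of 0 of the 9 members. With 9 genes and such a share, this does not show that they are free of a difference between the sets. The labels name no batch. Untreated cells belong to the other set, so batch and auxin cannot be told apart where 2 to 12 h is compared with them. Transcripts of all 9 embryonic stem cell markers were present (summed level 98790 to 130800 per library), against 80.2 to 166 for 6 measured primitive endoderm markers, of which Sox17 was at 0 in its lowest library. The primitive endoderm sum was 80.2 and 81.1 in untreated cells, 94.5 to 158 from 2 h to 1 day, 152 and 166 after 2 days, and 96.7 and 101 after withdrawal. The 5 measured trophectoderm markers summed to 997 to 1241 in untreated cells, 545 to 843 from 12 h to 2 days and 1276 to 1321 after withdrawal. Both sums moved with several members, in opposite directions, and the part of such cells in the results was not tested. The 3 measured fibroblast or feeder markers, mostly Vim, summed to 3243 and 6849 in the 2 untreated libraries and to 2683 to 5090 elsewhere. Mean Ddx10 mRNA lay between 1019 and 1947 over the groups, which does not check the labels because auxin acts on the protein. In bulk libraries, fewer cells of a type and less RNA per cell cannot be told apart.

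Levels can be compared between genes only per length, so normalized counts were divided by the length of each gene's merged exons. In untreated cells Slc7a5 led with 1730 ± 95.1 normalized counts per kb (SD, n = 2). Slc3a2 (1220 ± 111) and Slc7a3 (1220 ± 198) followed and did not differ beyond their spread. Slc38a2 (574 ± 142), Slc7a1 (407 ± 46.9) and Slc1a5 (396 ± 97.0) came next, and Slc7a1 and Slc1a5 were also within their spread of each other. Slc1a4 was at 173 ± 47.4, Slc6a9 at 32.8 ± 19.3 and Slc7a11 at 3.93 ± 1.54. The LAT1 light chain was thus the most abundant transcript of the set per kb and the cystine light chain the least, and both kept these places in all 8 groups. At 12 h Slc7a3 (445 ± 4.31 per kb) lay below Slc38a2 (675 ± 39.2), while at 6 h the pair did not differ beyond their spread (577 ± 22.6 and 593 ± 11.3). The merged exons include alternative ends, so these levels rank transcripts only roughly.

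**Figure D1:**
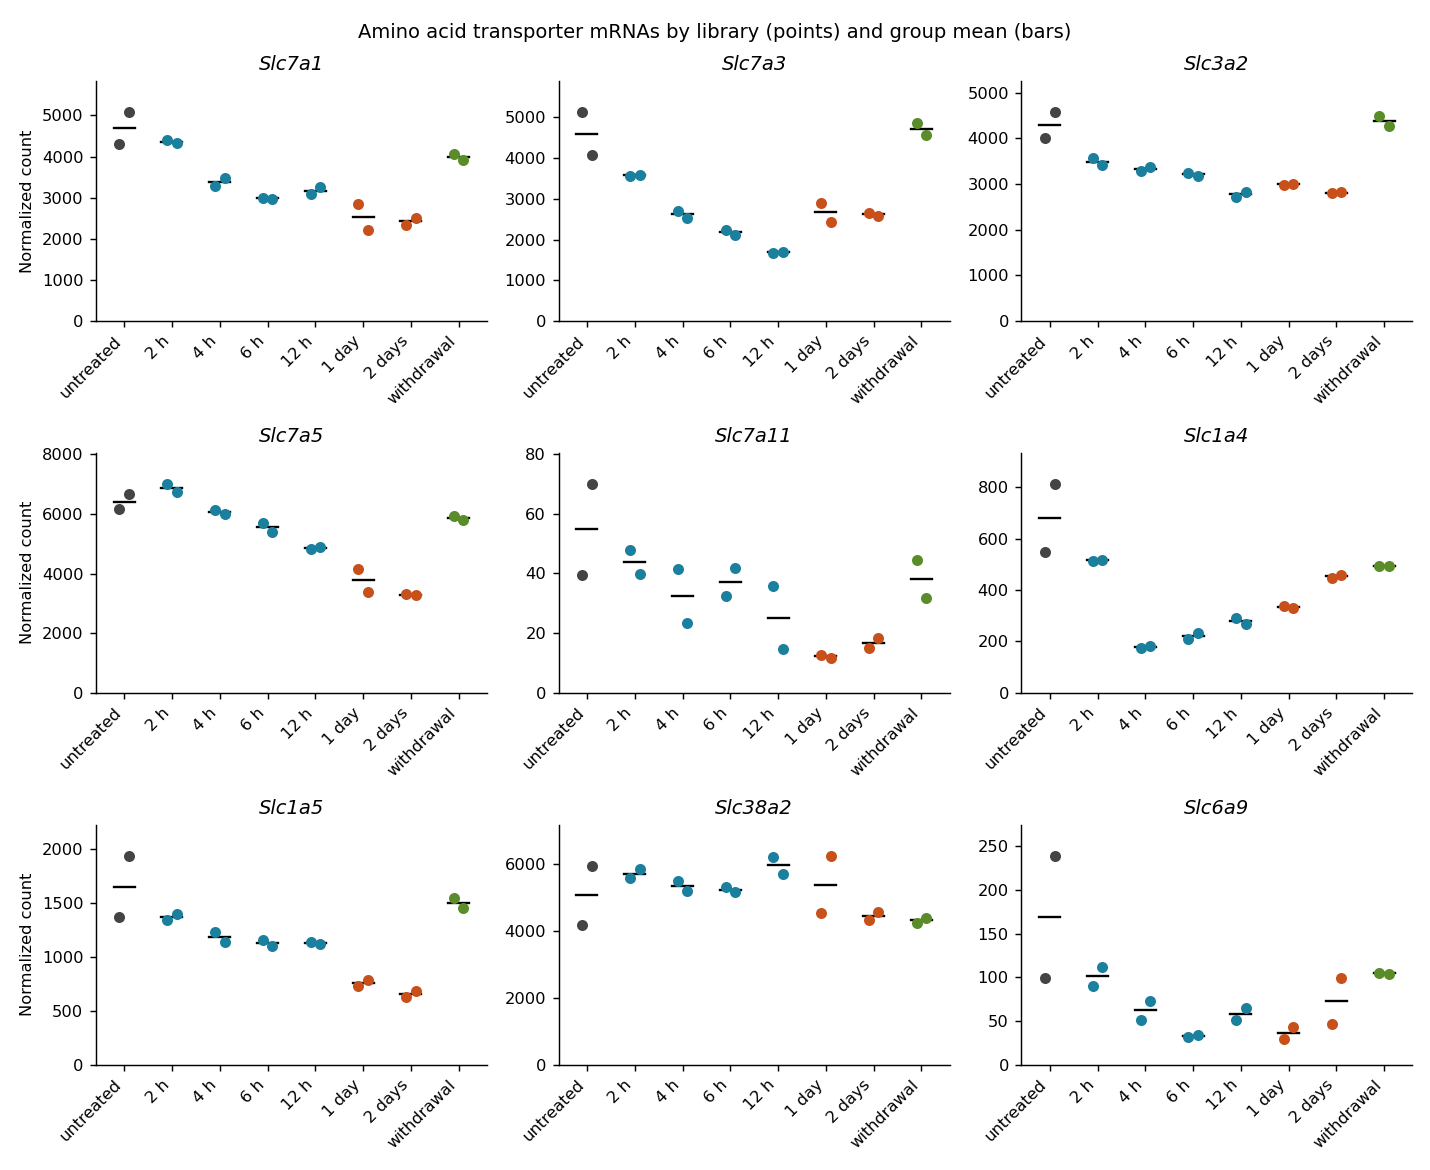
Normalized counts (vertical axis, linear from 0, a different range per gene) of the 9 transporter genes in the 8 groups; points are the 2 libraries of a group and bars their mean. Slc1a4 dropped from 512 and 518 after 2 h to 176 and 181 after 4 h, Slc7a3 reached its lowest mean at 12 h, and Slc7a5 and Slc1a5 at 2 days; Slc38a2 showed no such course.

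Both cationic carriers fell under auxin, with the lowest mean at 12 h for Slc7a3 and at 2 days for Slc7a1. Slc7a3 (ENSMUSG00000031297, chromosome X, 101079210 to 101086020) was at 5127 and 4069 normalized counts in untreated cells, 3570 and 3590 after 2 h, and 2713 and 2541 after 4 h. It was at 2245 and 2124 after 6 h, 1674 and 1697 after 12 h, 2898 and 2434 after 1 day, and 2661 and 2585 after 2 days. Every auxin library lay below both untreated libraries, and the 2 libraries of 12 h were the lowest of all 16. At 12 h the mean was 36.7% of untreated, a log2 change of -1.44 (SE 0.102, limma adjusted p = 5.88e-07). Between 2 h and 12 h, libraries of the same set, it changed by -1.09 (limma adjusted p = 9.37e-06). The level at 1 day was higher than at 12 h by 0.66 (limma adjusted p = 0.000592), a comparison chosen after the values were seen and one that crosses the sets of libraries, so batch and time cannot be told apart. The fall at 2 h (-0.35, limma adjusted p = 0.0346) did not pass without untreated replicate 1 (-0.19, limma adjusted p = 0.23) or without either library of 2 h (0.13 and 0.15).

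Slc7a1 (ENSMUSG00000041313, chromosome 5, 148327410 to 148399904) was at 4311 and 5076 in untreated cells, 4396 and 4336 after 2 h, and 3280 and 3479 after 4 h. Its values were 2981 and 2978 after 6 h, 3079 and 3252 after 12 h, 2842 and 2208 after 1 day, and 2332 and 2512 after 2 days. The libraries of 2 h lay within the untreated range, and those of every later auxin time lay below it. It fell, with a log2 change of -0.65 at 6 h (limma adjusted p = 0.000657), -0.90 at 1 day (2.2e-05) and -0.95 at 2 days (7.84e-06), where the mean was 51.6% of untreated. Against 2 h it was lower at 6 h (-0.55, limma adjusted p = 0.00549), a call lost without 6 h replicate 2 (0.053), while the 4 h call against untreated (-0.47, limma adjusted p = 0.0078) was lost without untreated replicate 2 (0.052) or 4 h replicate 1 (0.072). Within libraries, the ratio of Slc7a3 to Slc7a1 per kb was 3.62 and 2.44 in untreated cells, 1.66 and 1.59 after 12 h, and 3.11 to 3.48 at 1 and 2 days. The 12 h libraries had the lowest ratios of the 16, and no test was made on them.

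Of the heterodimer genes, the heavy chain Slc3a2 was called lower than untreated from 2 h on and the light chain Slc7a5 from 12 h on. This difference in time was not tested. It rests on comparisons that cross the sets of libraries, so batch and time cannot be told apart in it. Against 2 h, within 1 set, Slc3a2 did not pass at 6 h (-0.12, limma adjusted p = 0.334) and was lower at 12 h (-0.33, 0.00335). The changes of Slc7a5 against 2 h were -0.31 at 6 h and -0.50 at 12 h. Slc3a2 (ENSMUSG00000010095, chromosome 19, 8706882 to 8723369) was at 4014 and 4570 in untreated cells, 3576 and 3409 after 2 h, 3275 and 3371 after 4 h, and 3246 and 3172 after 6 h. It was at 2722 and 2818 after 12 h, 2979 and 3010 after 1 day, and 2801 and 2817 after 2 days. All 12 auxin libraries lay below both untreated libraries. The log2 change was -0.30 at 2 h (SE 0.0688, limma adjusted p = 0.0124), -0.63 at 12 h (1.5e-05) and -0.61 at 2 days (1.04e-05), so that the 2-day mean was 65.4% of untreated. The 2 h call did not pass without untreated replicate 2 (limma adjusted p = 0.061) or 2 h replicate 2 (0.12).

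Slc7a5 (ENSMUSG00000040010, chromosome 8, 121881150 to 121907694) was at 6159 and 6658 in untreated cells, 6999 and 6748 after 2 h, 6132 and 5981 after 4 h, and 5708 and 5386 after 6 h. Its libraries were at 4837 and 4879 after 12 h, 4168 and 3367 after 1 day, and 3307 and 3285 after 2 days. The 2 h libraries were above both untreated ones without passing the test (0.10, 95% interval -0.08 to 0.28), and those of 4 h to 2 days were below. The fall first passed at 12 h (-0.40, SE 0.0837, limma adjusted p = 0.00238) and was -0.77 at 1 day (1.24e-05) and -0.96 at 2 days (1.07e-06), where 51.4% of the untreated mean was left. Slc7a5 was also lower at 12 h than at 2 h, within 1 set of libraries (-0.50, limma adjusted p = 0.000776). The 6 h call against 2 h (-0.31, limma adjusted p = 0.0378) was lost whichever of the 4 libraries was left out (0.11 to 0.26).

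The ratio of light to heavy chain within a library did not stay level. Slc7a5 over Slc3a2 per kb was 1.46 and 1.39 in untreated cells, 1.62 to 1.88 in the 8 libraries of 2 to 12 h, 1.06 to 1.33 at 1 and 2 days, and 1.25 and 1.29 after withdrawal. Every library of 2 to 12 h had a higher ratio than every other library. This is also the split between the 2 sets of libraries. For the step from untreated to 2 h and for that from 12 h to 1 day, batch and time cannot be told apart. No test was made on the ratios.

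**Figure D2:**
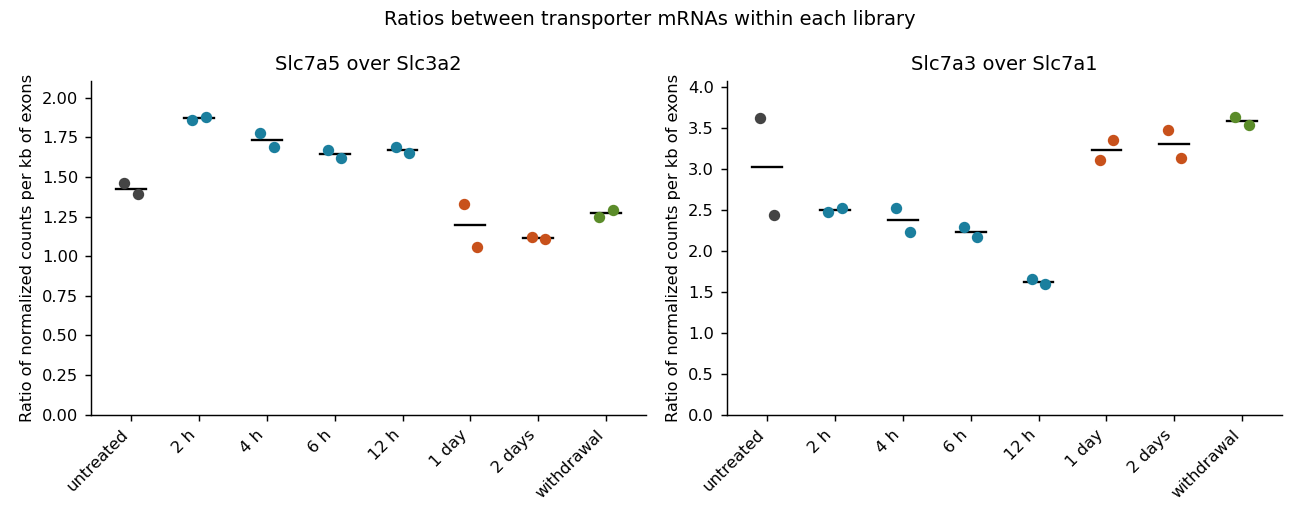
Ratio of normalized counts per kb of merged exons (vertical axis, linear from 0) of Slc7a5 over Slc3a2 and of Slc7a3 over Slc7a1 in each library; points are libraries and bars group means. The first ratio ran from 1.62 to 1.88 for 2 to 12 h and from 1.06 to 1.46 elsewhere, and the second was lowest at 12 h (1.66 and 1.59).

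Slc7a11 (ENSMUSG00000027737, chromosome 3, 49892526 to 50443614), the cystine light chain, was scarce throughout. It was at 39.6 and 69.9 in untreated cells, 47.8 and 39.9 after 2 h, 41.4 and 23.5 after 4 h, and 32.3 and 41.7 after 6 h. Later libraries were at 35.8 and 14.5 after 12 h, 12.6 and 11.7 after 1 day, and 15.0 and 18.4 after 2 days. Libraries of 2 to 6 h overlapped untreated, and those of 12 h to 2 days lay below it. The change was -2.03 at 1 day (95% interval -2.96 to -1.10, limma adjusted p = 0.00268) and -1.61 at 2 days (0.00818), or 22.2% and 30.5% of the untreated mean. The 1 day call did not pass with library weights (limma adjusted p = 0.094), and the 2 day call did not pass without untreated replicate 2 (-1.20, 0.079) or 2 days replicate 1 (0.054). At 12 h the value was -1.17 (limma adjusted p = 0.0527), which passed without 12 h replicate 1 (-1.79, 0.016) or untreated replicate 1 (-1.57, 0.034).

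Among the exchangers of small neutral amino acids, Slc1a4 and Slc1a5 moved in different orders. Slc1a4 (ENSMUSG00000020142, chromosome 11, 20302180 to 20332713), which carries serine, alanine and cysteine, was at 549 and 812 in untreated cells, 512 and 518 after 2 h, and 176 and 181 after 4 h. Later its libraries were at 208 and 232 after 6 h, 290 and 269 after 12 h, 340 and 330 after 1 day, and 448 and 460 after 2 days. All auxin libraries were below both untreated ones, but the lowest were those of 4 h and each later auxin time lay above the time before it without overlap. The steps from 12 h to 1 day (0.26, limma adjusted p = 0.203) and from 1 to 2 days (0.44, 0.105) did not pass. The step from 12 h to 1 day also crosses the sets of libraries, so batch and time cannot be told apart there. At 4 h the mean was 26.2% of untreated (-1.90, SE 0.149, limma adjusted p = 6.82e-06), and it was 2.87-fold lower than at 2 h in the same set of libraries (-1.52, limma adjusted p = 0.000161). The level at 12 h was higher than at 4 h by 0.64 (95% interval 0.32 to 0.96, limma adjusted p = 0.0101), a comparison chosen after the values were seen. That call did not pass without 4 h replicate 1 (limma adjusted p = 0.062), 4 h replicate 2 (0.055) or 12 h replicate 1 (0.085), with values of 0.59 to 0.66. At 2 days Slc1a4 was still lower than in untreated cells (-0.56, limma adjusted p = 0.00775), though not without untreated replicate 2 (-0.28, 0.095). The 2 h value of -0.38 did not pass (limma adjusted p = 0.106), but it did without untreated replicate 1 (-0.66, 0.0041).

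Slc1a5 (ENSMUSG00000001918, chromosome 7, 16781340 to 16798274), the glutamine exchanger, was at 1368 and 1940 in untreated cells, 1340 and 1403 after 2 h, 1231 and 1143 after 4 h, and 1158 and 1100 after 6 h. It was at 1137 and 1122 after 12 h, 732 and 785 after 1 day, and 625 and 688 after 2 days. From 4 h to 2 days all libraries lay below both untreated ones, and the libraries of 1 and 2 days lay below all others. The log2 change was -0.53 at 12 h (SE 0.126, limma adjusted p = 0.00565), -1.10 at 1 day (2.01e-05) and -1.31 at 2 days (2.49e-06), so that 39.7% of the untreated mean was left. Calls at 4 h (-0.46, limma adjusted p = 0.0228) and 6 h (-0.53, 0.00857) were lost without untreated replicate 2 (-0.21, 0.16, and -0.28, 0.057), the 4 h call also without either 4 h library (0.075 and 0.13) and the 6 h call without 6 h replicate 2 (0.064). Without untreated replicate 1, the 2 h value of -0.25 (limma adjusted p = 0.203) became -0.50 and passed (0.0055).

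Slc38a2 (ENSMUSG00000022462, chromosome 15, 96687392 to 96699730), the sodium-coupled importer, was not called in any comparison with all libraries. It was at 4181 and 5958 in untreated cells, 5580 and 5857 after 2 h, 5513 and 5214 after 4 h, and 5315 and 5174 after 6 h. It was at 6214 and 5724 after 12 h, 4538 and 6254 after 1 day, and 4325 and 4583 after 2 days. Both libraries of 2 days lay inside the untreated range. The difference from untreated was 0.26 at 12 h (95% interval -0.06 to 0.57) and -0.17 at 2 days (95% interval -0.48 to 0.15), so the smallest change among the other 8 members at 2 days (-0.56, in Slc1a4) lay outside the interval. The value turned on the untreated pair: it was higher without untreated replicate 2 at 2 h (0.45, limma adjusted p = 0.039), and at 12 h (0.51, 0.011), and lower at 2 days without untreated replicate 1 (-0.42, 0.024).

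Slc6a9 (ENSMUSG00000028542, chromosome 4, 117834506 to 117875198), the glycine importer, had some of the lowest log2 changes of the set, with wide error. Its values were 98.8 and 239 in untreated cells, 89.6 and 112 after 2 h, 51.2 and 72.7 after 4 h, and 31.2 and 33.5 after 6 h. They were 50.9 and 65.2 after 12 h, 29.6 and 42.6 after 1 day, and 46.1 and 99.3 after 2 days. Libraries of 4 h to 1 day lay below both untreated ones, while 2 h and 2 days overlapped them. The lowest mean, at 6 h, was 19.2% of untreated (-2.22, SE 0.404, limma adjusted p = 0.00162), and 1 day was at 21.4% (-2.08, 0.00137). The calls at 4 h, 12 h and 2 days (limma adjusted p = 0.0362, 0.0165 and 0.03) were lost without untreated replicate 2 (0.26, 0.17 and 0.32), the 4 h call also without 4 h replicate 1 (0.22) or 2 (0.069), the 12 h call without 12 h replicate 1 (0.11) and the 2 day call without 2 days replicate 1 (0.3). Of its merged exon bases, 27.8% are shared with Ccdc24, 9.94% with Gm17114 and 0.895% with B4galt2, all on the opposite strand, and whether counting used strand is not given in the sources used here, so these reads cannot be told apart. Ccdc24 itself was listed at 1.87 to 29.9 per library.

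**Figure D3:**
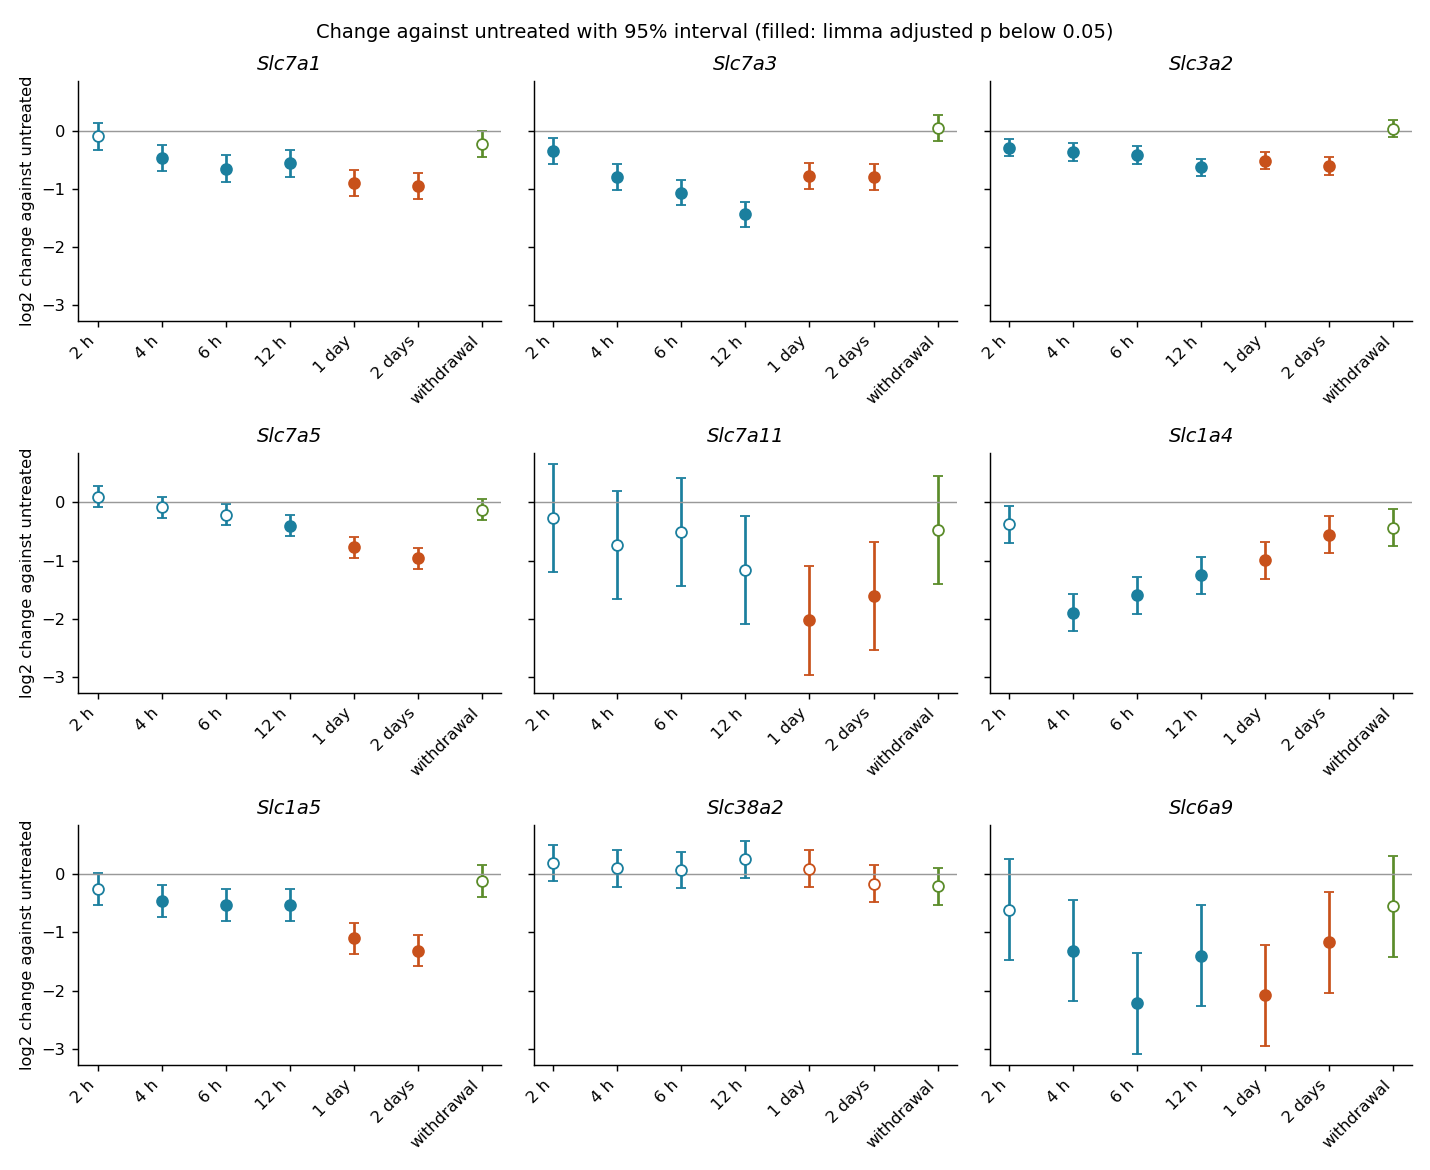
Log2 change of each transporter gene against untreated (vertical axis, on log2 of normalized count + 1, same range in all panels) at the 6 auxin times and after withdrawal; points are limma estimates, bars 95% intervals, filled points have an adjusted p below 0.05. Slc1a4 is lowest at 4 h (-1.90), Slc7a3 at 12 h (-1.44), Slc7a5 (-0.96) and Slc1a5 (-1.31) at 2 days, no point of Slc38a2 is filled, and after withdrawal none is.

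Counted together, members were called in 1 direction only against untreated. The members were chosen with earlier results of these data known, so their counts are no independent evidence of a direction. All comparisons with untreated share its 2 libraries, so the counts are not independent of each other. Those of 2 to 12 h also cross the sets of libraries that stood apart, so batch and auxin cannot be told apart in them. By limma with Benjamini-Hochberg adjustment over all tested genes, 2 of 9 were lower at 2 h, where 8.45% of all genes were, and 6 of 9 at 4 h against 10.2%. At 6 h 6 of 9 were lower (13.4% of all genes), at 12 h 7 (18.3%), at 1 day 8 (17.7%) and at 2 days 8 (23.8%). None was higher at any of these times. The median change of the 9 went from -0.26 at 2 h to -0.47, -0.53, -0.63, -0.90 and -0.95 at the later times, beside -0.012 to 0.023 for all tested genes. With untreated replicate 2 left out, 3 were called at 4 h and 5 at 2 days, and 3 were called at 4 h without 4 h replicate 1. At 2 h limma called 0 without 2 h replicate 2 and 1 without 2 h replicate 1.

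Comparisons that do not use the untreated libraries gave smaller sets. Within the libraries of 2 to 12 h, 2 members were lower at 4 h than at 2 h (0.681% of all genes), Slc1a4 and Slc7a3, although the call of Slc7a3 was lost whichever of the 4 libraries was left out (limma adjusted p = 0.12 to 0.28). Lower than at 2 h were 5 at 6 h (3.35% of all genes) and 5 at 12 h (13.7%): Slc7a1, Slc7a3, Slc7a5 and Slc1a4 at both times, with Slc6a9 at 6 h and Slc3a2 at 12 h. The 6 h call of Slc6a9 was lost whichever of the 4 libraries was left out, with changes of -1.76 to -1.44. Leaving out any 1 of the 4 libraries took the 6 h count to between 2 and 3, and at 12 h Slc7a1 was lost without 12 h replicate 1 (limma adjusted p = 0.05) while Slc7a11 then passed (-1.53, 0.045). From 4 h to 12 h, 4 members were called (16.8% of all genes): Slc7a3, Slc7a5 and Slc3a2 lower and Slc1a4 higher, of which Slc7a5 and Slc3a2 were lost whichever of the 4 libraries was left out (limma adjusted p up to 0.11 and 0.13). From 12 h to 1 day, across the sets of libraries, 4 were called (30.4%): Slc7a3 higher, and Slc7a1 (-0.34), Slc7a5 (-0.38) and Slc1a5 (-0.58) lower. Slc7a1 was lost there without either library of 12 h or without 1 day replicate 2 (limma adjusted p = 0.076, 0.14 and 0.25). Between 1 and 2 days limma called 0 of 9 (5.65% of all genes), with 3 at an unadjusted p below 0.05. Slc38a2 passed there without 1 day replicate 1 (-0.49, limma adjusted p = 0.046) and Slc7a5 without 1 day replicate 2 (-0.34, 0.0081). Over all 8 groups, the limma F-test called 8 of the 9 members and 68.6% of all genes, and Slc38a2 was the member not called (adjusted p = 0.098).

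After withdrawal the means of the members ran from 61.8% (Slc6a9) to 103% (Slc7a3) of untreated. Their median log2 change was -0.21, beside -0.01 for all tested genes. Against untreated, limma called 0 of 9 members in either direction (2.79% of all genes), with 2 at an unadjusted p below 0.05, Slc7a1 (85.1% of the untreated mean) and Slc1a4 (72.5%). Without untreated replicate 1, Slc1a4 (-0.72, limma adjusted p = 0.0031) and Slc1a5 (-0.37, 0.035) were lower. A call that misses the threshold does not show equal levels. The 95% interval of the difference was -0.17 to 0.26 for Slc7a3, -0.12 to 0.18 for Slc3a2 and -0.31 to 0.05 for Slc7a5. It was as wide as -1.42 to 0.32 for Slc6a9 and -1.40 to 0.46 for Slc7a11. For Slc7a1 (-0.452 to -0.003) and Slc1a4 (-0.756 to -0.116) the interval lay below 0. Libraries after withdrawal were at 4858 and 4567 for Slc7a3, 4065 and 3927 for Slc7a1, 5917 and 5803 for Slc7a5, and 4490 and 4268 for Slc3a2. Those of Slc1a5 were at 1549 and 1459, of Slc1a4 at 493 and 494, and of Slc38a2 at 4255 and 4389. The scarce Slc7a11 was at 44.6 and 31.9 and Slc6a9 at 105 and 104.

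Compared with 2 days of auxin, 6 of 9 members were higher after withdrawal, where 22.2% of all genes were. The largest of these changes was that of Slc1a5, 2.29-fold (1.20, limma adjusted p = 6.65e-06), followed among the abundant genes by Slc7a3 (0.85, 2.1e-05), Slc7a5 (0.83, 4.46e-06), Slc7a1 (0.72, 0.0001) and Slc3a2 (0.64, 7.64e-06). Slc7a11 was just inside the threshold (1.13, limma adjusted p = 0.0499) and was lost whichever of the 4 libraries was left out (0.073 to 0.24). Slc1a4 had a 2-day level close to that after withdrawal (448 and 460 against 493 and 494), a difference of 0.12 with a 95% interval of -0.20 to 0.44. Slc38a2 differed by -0.04 (-0.36 to 0.27) and Slc6a9 by 0.62 (-0.25 to 1.49), neither called.

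Other amino acid transporters of the plasma membrane and lysosome did not share a direction. Of 40 listed, 31 were in the table and 27 were tested. Against untreated, limma called 0 at 2 h (4 at an unadjusted p below 0.05), 3 higher and 2 lower at 4 h, 6 higher and 3 lower at both 12 h and 1 day, and 9 higher and 6 lower at 2 days, with a median change at 2 days of 0.29 beside -0.95 for the 9 members. Of all 13355 genes, 2806 were higher at 2 days and 3179 lower. Members and list were both chosen with earlier results of these data known, so the contrast between them is no independent evidence. The 2-day counts became 6 higher and 3 lower without 2 days replicate 1 and 4 higher and 4 lower without 2 days replicate 2, and 4 were lower without either untreated library. At 4 h, 0 were higher and 1 lower without 4 h replicate 1, 1 and 1 without 4 h replicate 2, 4 and 4 without untreated replicate 1, and 4 and 1 without untreated replicate 2. At 12 h, 2 and 3 were higher without replicate 1 or 2 of 12 h. At 2 days the glutamate and cysteine transporter Slc1a1 was at 230 ± 4.37 against 35.8 ± 24.0 (SD, n = 2; 2.83, limma adjusted p = 1.64e-05), the proline transporter Slc6a7 rose by 1.45, and Ctns, which exports cystine from lysosomes, by 1.23. Of those with a mean of at least 50, the lowest changes were those of Slc7a7, another light chain of Slc3a2, at 38.6 ± 0.503 against 307 ± 156 (-2.86, limma adjusted p = 2.96e-06), Slc38a1, which like Slc38a2 imports glutamine (-0.92), and the neutral amino acid transporter Slc6a15 (-0.82). These 6 genes passed with each of the 4 libraries left out in turn. After withdrawal Slc7a7 was at 220 ± 16.3, 2.48 above 2 days on the log2 scale, and Slc6a7 at 108 ± 23.1, a change of -1.54. Not all were back at the untreated level: of the 27, limma called 1 higher and 1 lower after withdrawal than in untreated cells, Slc1a1 at 117 ± 7.23 (1.85, adjusted p = 0.011) and Slc38a1 at 1955 ± 49.1 against 2872 ± 374 (-0.55, 0.0072). Both calls were lost without either withdrawal library (limma adjusted p up to 0.097 and 0.075).

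**Figure D4:**
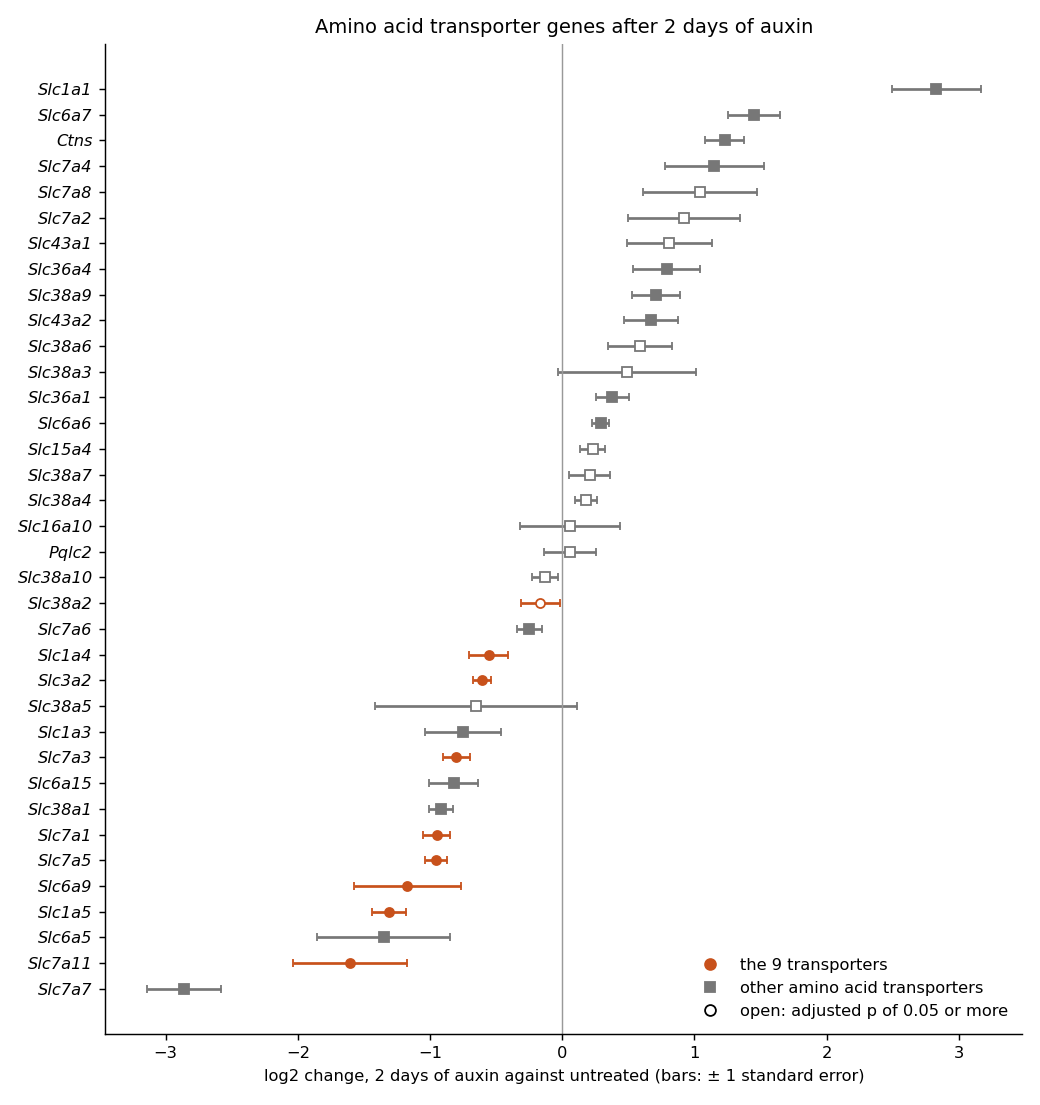
Log2 change after 2 days of auxin against untreated (horizontal axis, on log2 of normalized count + 1) of the 9 transporters (circles) and 27 other amino acid transporter genes (squares); bars are 1 standard error and open symbols have a limma adjusted p of 0.05 or more. Of the 9, 8 lie below 0 with filled symbols, while the other genes spread from Slc1a1 at 2.83 to Slc7a7 at -2.86. Both sets of genes were chosen with earlier results of these data known.

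Of 9 mitochondrial carriers of amino acids tested at 2 days, 4 were lower and 1 was higher (median -0.32). These counts stand beside 3179 lower and 2806 higher of all 13355 genes at 2 days, and whether they differ from those shares was not tested. The changes were -1.14 for the serine carrier Sfxn1, -0.87 for the aspartate-glutamate carrier Slc25a12 and -0.79 for the ornithine carrier Slc25a15. Slc25a12 was lost with 2 of the 4 libraries left out in turn (limma adjusted p up to 0.059, without 2 days replicate 1). Sfxn1 and Slc25a15 were higher after withdrawal than at 2 days, by 0.92 and 0.83. Slc25a44, a carrier of branched-chain amino acids, was higher by 0.35, a call lost whichever of the 4 libraries was left out (limma adjusted p up to 0.15).

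Genes of serine and glycine metabolism, which act on amino acids that Slc1a4 and Slc6a9 carry, were mostly lower at the later auxin times. Of 12 tested, limma called 0 lower at 2 h (4 at an unadjusted p below 0.05), 4 at 4 h and 7 at 6 h. It called 10 lower at 12 h, 8 at 1 day and 9 at 2 days, with medians of -0.55 at 12 h and -0.60 at 2 days. The shares of all genes lower at these 6 times were 8.45%, 10.2%, 13.4%, 18.3%, 17.7% and 23.8%. At 4 h, 1 was left without 4 h replicate 1 and 2 without 4 h replicate 2. At 2 days the changes were -2.04 and -1.97 for the serine synthesis enzymes Psat1 and Phgdh, and -1.45 for Shmt2, the mitochondrial enzyme that turns serine into glycine. Amt of the glycine cleavage system rose by 0.87. Psat1 went from 8696 ± 523 in untreated cells to 6358 ± 264 at 4 h, 2815 ± 26.3 at 12 h and 2114 ± 33.3 at 2 days (SD, n = 2), without the turn at 4 h seen in Slc1a4. After withdrawal 9 of the 12 were higher than at 2 days and 2 were lower (1 with each of the 4 libraries left out in turn). Against untreated, 2 of the 12 were still lower then: Phgdh at 2390 ± 62.8 against 3763 ± 230 (-0.65, limma adjusted p = 0.00063), and Psat1 at 6190 ± 228 (-0.49, 0.0072), which was lost without withdrawal replicate 2 (0.078).

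ATF4 targets that are not transporters were mostly lower as well. Psat1, Phgdh, Psph, Shmt2, Chac1, Sesn2, Atf4, Nfe2l2 and Slc38a9 stand on 2 lists each, and all lists were chosen with earlier results of these data known, so their counts are no independent evidence of a direction. Of 40 tested of 53 listed, limma called 4 lower at 2 h, 18 at 4 h, 24 at 6 h, 32 at 12 h, 29 at 1 day and 29 at 2 days, against 0 to 5 higher, and the list median at 2 days was -0.79. The 4 h count was 9 without 4 h replicate 1 and 10 without 4 h replicate 2, and the 2 h count was 2 without untreated replicate 2 or either library of 2 h. Atf4 mRNA was at 5383 ± 737 in untreated cells, 3906 ± 88.9 at 2 h, 2911 ± 80.0 at 6 h, 3686 ± 245 at 2 days and 5301 ± 489 after withdrawal, and all 6 auxin times were lower than untreated. At 2 days the change was -5.05 for Chac1, which encodes a glutathione-degrading enzyme, and -3.87 for the stress gene Nupr1, whereas Ddit4 rose by 1.97, Ddit3 by 1.96 and Sesn2, a leucine sensor, by 0.68. Asparagine synthetase (Asns) was also lower (-0.23, limma adjusted p = 0.0277), a call lost without 3 of the 4 libraries (up to 0.16). After withdrawal, 28 of the 40 were higher than at 2 days (22.2% of all genes) and 4 were lower (19.1%). Against untreated cells, 3 were still lower (1.07% of all genes), a count that changed when 1 library was left out.

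The remaining lists had medians nearer to 0, and their counts stand beside 2806 higher and 3179 lower of all 13355 genes at 2 days. At 2 days 8 of 32 tested genes of amino acid sensing by mTORC1 were higher and 6 lower (median -0.03), shares near those of all genes, led by the sestrin Sesn3 (1.21) and the folliculin gene Flcn (0.77), and by Gatsl3 (-0.67) among the lower ones. Without 2 days replicate 2 these counts were 5 and 3, with 5 higher also without 2 days replicate 1 or untreated replicate 1. Of 12 glutathione and antioxidant genes, 1 was higher and 4 were lower (median -0.08; 2 lower without 2 days replicate 2, 2 higher without untreated replicate 1 and 0 higher without untreated replicate 2), and of 8 genes upstream in the integrated stress response 2 were higher and 4 lower (median -0.17). Among 6 transcription factors known to act on the members, Myc went from 436 normalized counts in untreated cells to 56.9 at 2 days (-2.94, limma adjusted p = 4.2e-08) and 370 after withdrawal. Atf4 was lower and Trp53 higher by 0.30 (limma adjusted p = 0.00164), while Nfe2l2 (0.18, 0.0731) and Mycn (0.28, 0.29) were not called.

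Genes with the most similar course were named for each member by Pearson correlation of log2 values over the 16 libraries, given as a description with no test. Closest to Slc7a5 were Ppat (0.993), an enzyme of purine synthesis, Xpot (0.992), which exports tRNA from the nucleus, and the transcription factor gene Etv1 (0.985). Closest to Slc1a5 were Myrf (0.985), the Wnt receptor gene Fzd7 (0.978) and the glycolytic gene Pgk1 (0.967), and the folate enzyme gene Mthfd2 (0.953) was among the 3 closest to Slc7a1. For Slc7a3 the closest was Ssbp1 (0.973), which binds mitochondrial DNA, for Slc3a2 Ccdc58 and Nop10 (both 0.97), and for Slc1a4 Crem (0.912), a cAMP-responsive factor. The leading values of Slc7a11 (0.91), Slc38a2 (0.893) and Slc6a9 (0.878) were lower. Between members, Slc7a1 with Slc1a5 (0.914) and Slc7a5 with Slc1a5 (0.909) were most alike, while Slc38a2 ran from -0.51 to 0.197 with the other 8. Within the 8 libraries of 2 to 12 h the order differed. Slc7a3 with Slc7a5 led there (0.993, against 0.44 over all 16), and Slc38a2 ran from -0.523 to 0.516. All points share the same 16 libraries and their grouping.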

How the data were processed

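The authors deposited 1 table of genes by libraries that holds normalized read counts, treated here as a signal: read counts per gene scaled per library, as its name and its values show. Trim Galore, STAR, RSEM, DESeq2 and the build mm10 (GRCm38) are named per the submitters' processing notes. What each tool did, its version, the annotation, the gene filter and the use of strand: not given in the sources used here. Libraries held 13.6 to 17.5 M reads, estimated from 1884 genes with 1 annotated transcript, and log2 changes had a median standard error of 0.158.

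From the values as deposited, log2(value + 1) was computed, which understates the change of low genes, and genes with a mean of at least 10 were fitted. A linear model of the 8 group means was fitted to the 16 libraries together with limma 3.58.1 (R 4.3.3, intensity trend, 8 residual degrees of freedom), and figures were drawn with Python 3.11.15. Benjamini-Hochberg adjustment ran over all genes tested, per comparison, and a gene counts as called where the adjusted p was below 0.05. The code was tested on simulated data.

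Groups and replicate numbers came from the labels. The members and all gene lists were chosen with earlier results of these data known. From each list up to 3 called genes per direction and comparison, those with the largest change and a mean of at least 50, could be named, besides a short list of stress and growth regulators. The lists were other plasma membrane and lysosomal transporters, mitochondrial carriers, other ATF4 targets, upstream genes of the integrated stress response, mTORC1 sensing, glutathione genes, transcription factors and serine and glycine metabolism. Positions are from GENCODE M21, which holds 14467 of the identifiers and lacks 85, and promoters are from RefSeq. Alternatives covered pseudocounts, filters, rescaling, library weights, a replicate block, fits of 2 groups, a length and GC trend, and leaving out each library. Comparisons of 12 h with 4 h and of 1 day with 12 h, the trend, and list counts without each library were added after the data were seen.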

Additional observations from a re-analysis of the deposited data

Results flagged for a closer look

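A pair of members that were lower than untreated changed in the opposite direction between later auxin times. Slc1a4, lower at 4 h than in untreated cells, was higher at 12 h than at 4 h by a log2 value of 0.644 (limma adjusted p = 0.0101, both 12 h libraries above both 4 h libraries), a call lost without either 4 h library (0.062 and 0.055) or 12 h replicate 1 (0.085). Slc7a3, lower at 12 h than in untreated cells, was higher at 1 day than at 12 h by 0.656 (limma adjusted p = 0.000592, both 1 day libraries above both 12 h libraries), and this call was kept with each of the 4 libraries left out in turn. The second comparison crosses the sets of libraries that stood apart, so batch and time cannot be told apart there. Both comparisons were chosen after the values were seen.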

How the results depend on the processing

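Over 1750 alternative values of the 9 members, 1647 kept their side of the threshold, 78 lost a call, 25 gained one and 0 called values changed sign. Of the 1647, 28 changed sign, none of them called. The number of the 9 members called at 2 h against untreated was 1 once a trend on length and GC content was taken out, and 0 when only the compared groups were fitted, and at 4 h it was 3 with those groups alone. With 1 library left out the number ranged from 0 to 3 at 2 h, 3 to 6 at 4 h, 5 to 9 at 2 days and 0 to 2 after withdrawal, all against untreated. It was 1 in each case for 4 h against 2 h, 2 to 3 for 6 h against 2 h, 1 to 2 for 12 h against 4 h and 0 to 1 for 2 days against 1 day. Fitting only the compared groups ended the calls against untreated of Slc7a3 and Slc3a2 at 2 h, Slc3a2, Slc6a9 and Slc1a5 at 4 h, Slc1a5 at 6 h, Slc6a9 and Slc1a5 at 12 h, Slc3a2 at 1 day, and Slc6a9 and Slc1a4 at 2 days (limma adjusted p = 0.05 to 0.15). Library weights ended those of Slc6a9 at 4 h and 2 days (limma adjusted p = 0.093 and 0.07) and of Slc7a11 at 1 day. The cause of these changes was not tested. Leaving out a library leaves a group with 1 library, which is then assumed to vary like the others.

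Same-numbered libraries did not deviate together (28 group pairs, correlations of -0.0614 to 0.0664, 0 above 0.1). Whether they were cultured or prepared together is not stated by the labels. With the replicate block, 5 in place of 6 members were higher after withdrawal than at 2 days (Slc7a11, limma adjusted p = 0.056), the counts of the other comparisons were as without it, and the F-test over the 8 groups called 8. Counts over all genes moved more: at 2 h against untreated 2030 genes were called, and 408 with the groups alone, 1110 with library weights and 501 to 2267 with 1 library left out. At 1 day 4484 were called, and 1219 with the groups alone and 1874 with library weights. After withdrawal against untreated it was 373, and 1, 130 and 67 to 1106. For 2 days against 1 day it was 754, and 0, 242 and 206 to 1526. For 4 h against 2 h it was 327, and 694, 1120 and 97 to 123. Over all alternatives and comparisons, the median change of all genes lay between -0.086 and 0.074. Precision was lowest for Slc7a11 and Slc6a9, with standard errors of 0.432 and 0.404, and the part of depth in this was not tested.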
